A study of Mus musculus with 16 samples.

Results

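The clustered protocadherins are cell-surface adhesion proteins of the cadherin family, encoded in mouse by the neighbouring alpha, beta and gamma clusters on chromosome 18. Members were the genes named Pcdha, Pcdhac, Pcdhb, Pcdhga, Pcdhgb or Pcdhgc followed by a number, each taken from the probe set with the highest mean over all arrays. This gave 20 of the 19505 genes measured. All 20 belonged to the beta cluster, Pcdhb1 to Pcdhb20, and each had a single probe set. The RefSeq gene table used here lists 58 such genes, of which 14 are alpha, 22 beta and 22 gamma. No probe set of an alpha or gamma gene, of Pcdhb21 or of Pcdhb22 carried a single gene symbol in the probe annotation used, so these genes, the C-type members among them, were not analysed here.

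Protocadherins of the same kind on facing membranes bind each other, and neighbouring neurons are told apart by the combination each one displays. A neuron turns on a subset of the promoters, a choice in which the DNA-looping factor CTCF, the cohesin complex and DNA methylation take part. Each beta gene is a single exon that carries its whole protein, whereas alpha and gamma variable exons are spliced to constant exons shared within their cluster. In mice, olfactory sensory neurons need clustered protocadherins for the ordered sorting of their axons into the glomeruli of the olfactory bulb.

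The 16 arrays came from S100a5-tauGFP mice, in which the S100a5 gene, active in stimulated olfactory sensory neurons, drives green fluorescent protein (GFP). All groups carried this reporter, and the 24 mice were of both sexes and 7 to 12 weeks old. They formed 8 pools of 3 mice, housed for 40 h in chambers through which clean air flowed at 3.1 L per min. After 26 h the odour began: 4 pools received 10 s pulses of cigarette smoke odour every 20 min (Odor) and 4 pools received filtered air in the same way (Vehicle). Cells of the pooled olfactory mucosa were dissociated and sorted into GFP+ and GFP- cells, so each of the 4 groups (Vehicle GFP+, Vehicle GFP-, Odor GFP+, Odor GFP-) held 4 arrays, each pool giving a GFP+ and a GFP- one. The reporter limits the sort: a neuron with little S100a5 activity falls into the GFP- fraction, and there it is mixed with every other cell type of the mucosa.

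S100a5 itself was at 16.39 to 16.51 on the log2 scale on Vehicle GFP+ arrays and at 16.80 to 17.14 on Odor GFP+ arrays. It was at 14.91 to 15.47 on Vehicle GFP- arrays and at 15.51 to 16.08 on Odor GFP- arrays. The gene behind the sort thus read higher in Odor mice in both fractions. Whether the sort took the same neurons in both exposures was not tested. Omp, the marker of mature olfactory neurons, was at 18.05 to 18.29 on all arrays, so both fractions held mature neurons. The immune marker Ptprc was at 7.85 to 8.71 on GFP+ arrays and at 13.42 to 14.95 on GFP- arrays. Correlations between arrays of 1 group ran from 0.988 to 0.995 across genes. In such bulk samples, fewer cells of a type and less RNA per cell cannot be told apart.

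Most beta protocadherins gave signal above background in both fractions. The detection level was set per group as the mean over its arrays of the 95th percentile of 319 vomeronasal receptors, genes of another organ. It lay at 6.46 in Vehicle GFP+, 6.19 in Vehicle GFP-, 6.57 in Odor GFP+ and 6.26 in Odor GFP- arrays. The group mean exceeded it for 19, 18, 19 and 18 of the 20 genes, respectively. Pcdhb10 was at or below it in all 4 groups and Pcdhb3 in both GFP- groups, while the other 18 genes exceeded it in every group. A stricter level was the highest of the 23 background probe sets of each array. Over this one lay 11 genes in Vehicle GFP+, 7 in Vehicle GFP-, 14 in Odor GFP+ and 8 in Odor GFP- arrays. The same 7 genes, Pcdhb1, Pcdhb4, Pcdhb9, Pcdhb14, Pcdhb16, Pcdhb17 and Pcdhb20, exceeded the stricter level in all 4 groups, and Pcdhb2, Pcdhb3, Pcdhb6, Pcdhb10, Pcdhb13 and Pcdhb15 exceeded it in none.

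Values of Pcdhb1 ran from 15.44 to 16.15, and on 5 arrays it exceeded 16, the highest log2 value a 16-bit scanner can record, so its scale may be stretched. The other members spanned 4.78 to 11.52. Levels of different probe sets cannot be ranked against each other. The standard deviation over the 4 arrays of a group ran from 0.032 (Pcdhb14 in Vehicle GFP+) to 0.68 (Pcdhb13 in Odor GFP+), with a median of 0.24. The beta genes are similar in sequence, and whether probes of one bind RNA of another was not tested.

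**Figure D1:**
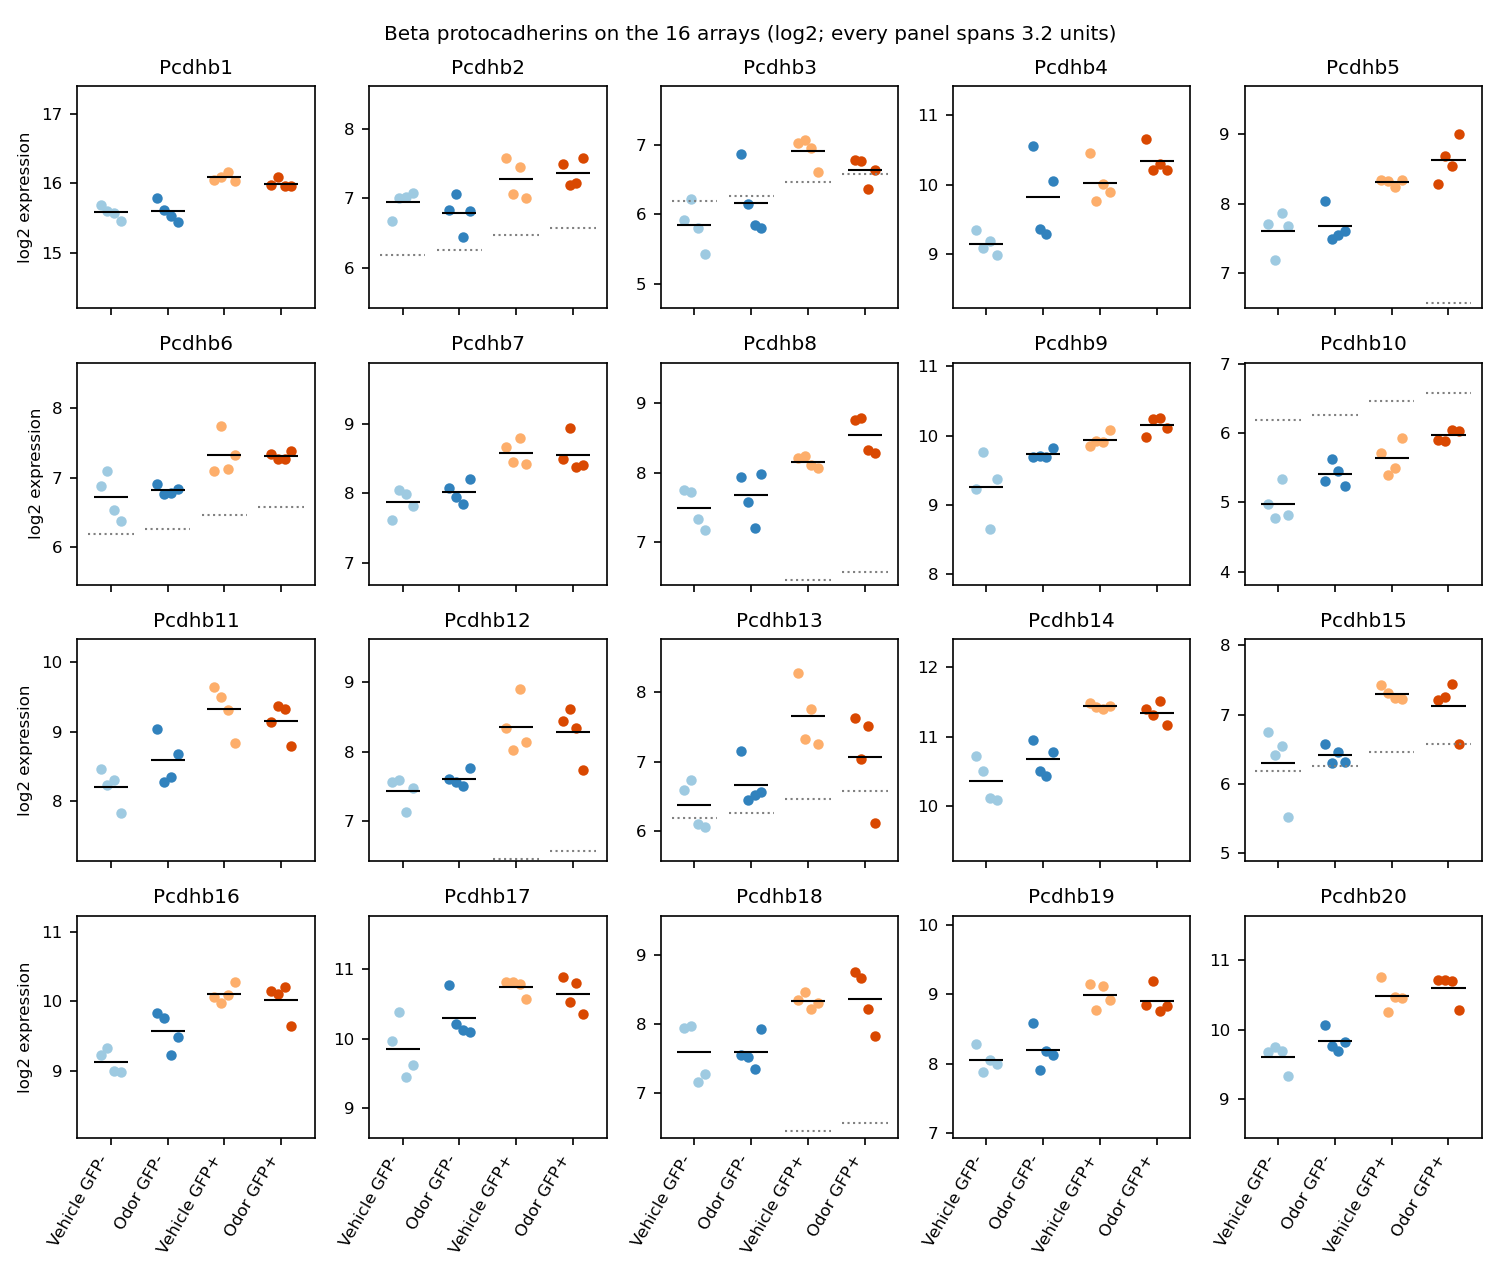
Log2 expression (vertical axes, each spanning the same number of log2 units) of the 20 beta protocadherins by group (horizontal axes); points are arrays, black lines group means and dotted lines the vomeronasal detection level where it falls within the panel. In Vehicle mice, GFP+ points lie above all GFP- points for 18 of the 20 genes.

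The first comparison asked whether the cells that carried the reporter of activity differed in protocadherin RNA from the rest of the mucosa. In Vehicle mice, 19 of the 20 beta protocadherins were higher in GFP+ than in GFP- cells and none was lower (limma, Benjamini-Hochberg adjusted p at most 0.05 over all genes). Of all genes tested, 24.2% were higher and 15.4% lower. The median log2 difference of the members was 0.87, a 1.83-fold higher level, against 0.17 over all genes. All 20 differences were above 0, as were 67.6% of those of all genes. Single genes ran from 0.33 for Pcdhb2 to 1.28 for Pcdhb13. Pcdhb2, at 7.58, 7.06, 7.45 and 7.00 in GFP+ and 6.68, 7.00, 7.01 and 7.08 in GFP- cells of pools 1 to 4, was the member that did not pass (limma, adjusted p = 0.114).

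Pcdhb14 read 11.48, 11.43, 11.40 and 11.44 in the Vehicle GFP+ arrays and 10.73, 10.50, 10.11 and 10.09 in the GFP- arrays of the same pools. The GFP+ arrays were nearly identical and stood clear of the GFP- arrays, with a log2 difference of 1.08 (SE 0.15; limma, adjusted p = 2.24e-05). Pcdhb13, near the detection level in GFP- cells, read 8.28, 7.33, 7.76 and 7.26 in GFP+ and 6.60, 6.73, 6.11 and 6.05 in GFP- arrays. Its groups did not overlap either, but its spread was wider, and the difference of 1.28 had an SE of 0.30 (limma, adjusted p = 0.00288). Pcdhb11 was 1.12 higher, at 9.64, 9.50, 9.31 and 8.83 in GFP+ against 8.46, 8.23, 8.30 and 7.82 in GFP- arrays (limma, adjusted p = 0.000406).

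Pcdhb3 illustrates a gene measured on one side of the sort. It read 7.03, 7.07, 6.96 and 6.60 in Vehicle GFP+ arrays and 5.92, 6.23, 5.80 and 5.42 in GFP- arrays. Since its GFP- mean was below the detection level, the fold was taken against that level and was 1.63 in favour of GFP+ cells. This fold has no interval, and the level itself was higher in GFP+ than in GFP- arrays, so it is not a strict lower limit. The test was of the full log2 difference of 1.07 (limma, adjusted p = 0.000904). Pcdhb10 passed as well, with means of 5.63 and 4.98 that were both below the detection level, and no fold is given for it. Pcdhb1 was 0.50 higher in GFP+ cells (SE 0.097; limma, adjusted p = 0.000613), at 16.05, 16.09, 16.15 and 16.03 against 15.69, 15.60, 15.58 and 15.45.

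The other 13 genes called in Vehicle mice were Pcdhb4 to Pcdhb9, Pcdhb12 and Pcdhb15 to Pcdhb20. They were higher in GFP+ cells by 0.60 (Pcdhb6) to 0.99 (Pcdhb15), with adjusted p from 8.86e-05 (Pcdhb16) to 0.0113 (Pcdhb18) in limma. Pcdhb15 was near the detection level in GFP- cells, with a mean of 6.31 against 6.19. For 18 of the 20 genes the lowest GFP+ array exceeded the highest GFP- array, whereas 23.8% of all genes did so, and for none was the order reversed, as it was for 15.1% of all genes. The exceptions were Pcdhb2 and Pcdhb6.

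In Odor mice the direction was the same and the median difference lower. Here 15 of the 20 genes were higher in GFP+ cells and none was lower, against 18.3% of all genes higher and 14.4% lower. The median log2 difference of the members was 0.56, a 1.48-fold higher level, against 0.15 over all genes. Again all 20 differences were above 0, as were 67.4% of those of all genes. With the pool as a block, 17 genes were called, against 18.5% of all genes higher, Pcdhb3 (limma, adjusted p = 0.102 without and 0.0306 with the block) and Pcdhb4 (0.0935 and 0.0316) being the additions. Pcdhb9, Pcdhb13 and Pcdhb17 were called by neither fit.

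Pcdhb5 had the largest difference in Odor mice, 0.95 (SE 0.17; limma, adjusted p = 0.000331). It read 8.28, 8.69, 8.55 and 9.003 in GFP+ and 8.04, 7.50, 7.55 and 7.61 in GFP- arrays of pools 1 to 4. The groups did not overlap, and pool 1 showed the narrowest gap. Pcdhb20 read 10.71, 10.71, 10.69 and 10.29 in GFP+ and 10.07, 9.77, 9.70 and 9.82 in GFP- arrays, a difference of 0.76 (SE 0.14; limma, adjusted p = 0.000489). In Vehicle mice the difference of Pcdhb20 was 0.87 (limma, adjusted p = 0.000117), so it lay close in both exposures. Pcdhb8 was 0.87 higher in Odor GFP+ cells (limma, adjusted p = 0.00144).

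Pcdhb13 had the widest spread of the members in Odor mice. Its GFP+ arrays read 7.62, 7.04, 7.51 and 6.12 and its GFP- arrays 7.16, 6.45, 6.52 and 6.56, so the GFP+ array of pool 4 lay below all GFP- arrays. The difference was 0.40 (SE 0.30; limma, adjusted p = 0.320). Pcdhb17, with the smallest difference of 0.35 (limma, adjusted p = 0.184), had a high GFP- value in pool 1, at 10.77 against 10.10 to 10.21 in the other pools, while GFP+ arrays ran from 10.35 to 10.90. Groups did not overlap for 12 of the 20 genes, against 16.3% of all genes with GFP+ arrays higher and 13.5% with GFP+ arrays lower.

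**Figure D2:**
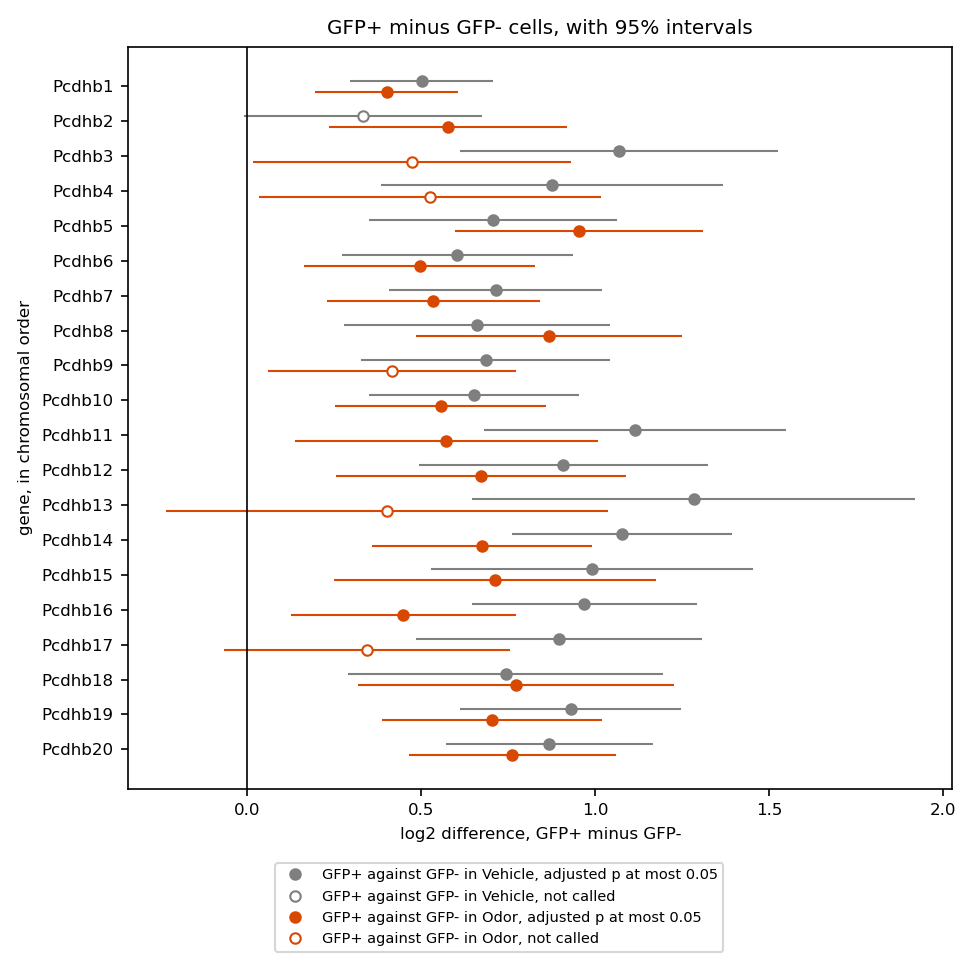
Log2 difference between GFP+ and GFP- cells (horizontal axis) for each beta protocadherin in chromosomal order (vertical axis), in Vehicle and in Odor mice; points are limma estimates, lines their 95% intervals and filled points adjusted p at most 0.05. All estimates lie above 0, and 19 of the 20 Vehicle and 15 of the 20 Odor points are filled.

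Over both exposures together, all 20 genes were higher in GFP+ cells, against 34.9% of all genes higher and 17.8% lower. A difference above 0, called or not, was seen for 70% of all genes. This comparison shares its arrays with the separate ones. The differences ran from 0.45 for Pcdhb1 to 0.88 for Pcdhb14 (SE 0.11; limma, adjusted p = 3.00e-06), with a median of 0.76 against 0.17 over all genes. Within pools, the GFP+ value exceeded the GFP- value in 155 of the 160 pairs of arrays, and 15 of the genes showed this in all 8 pools. The 5 remaining pairs were Pcdhb2 in Vehicle pool 4 (-0.07), Pcdhb3 in Odor pool 1 (-0.08) and Pcdhb12 (-0.03), Pcdhb13 (-0.44) and Pcdhb18 (-0.10) in Odor pool 4.

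Pools differed in how far their fractions lay apart. The mean difference over the 20 genes was 0.81, 0.63, 0.93 and 0.94 in Vehicle pools 1 to 4 and 0.43, 0.77, 0.80 and 0.38 in Odor pools 1 to 4. Odor pools 1 and 4 were thus below every Vehicle pool, and the other Odor pools lay inside the Vehicle range. Pool 1 had high GFP- values and pool 4 low GFP+ values. The mean over the 20 genes was 8.71 in Odor GFP- replicate 1, against 8.27 to 8.47 in the rest of its group. It was 8.85 in Odor GFP+ replicate 4, against 9.07 to 9.14. The 95th percentile of the vomeronasal receptors was also high in Odor pool 1. It was 6.54 in Odor GFP- replicate 1, against 6.15 to 6.19, and 6.78 in Odor GFP+ replicate 1, against 6.46 to 6.57. Odor GFP+ replicates 2 and 4 read higher than replicates 1 and 3 for markers of supporting cells, as given below. Without Odor pools 2 and 4, 6 of the 20 genes were called in Odor mice, at a median difference of 0.60. The share of all genes called higher fell as well, to 7.74%. Without Odor pool 1, 13 were called, at a median of 0.63, against 15.4% of all genes higher.

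**Figure D3:**
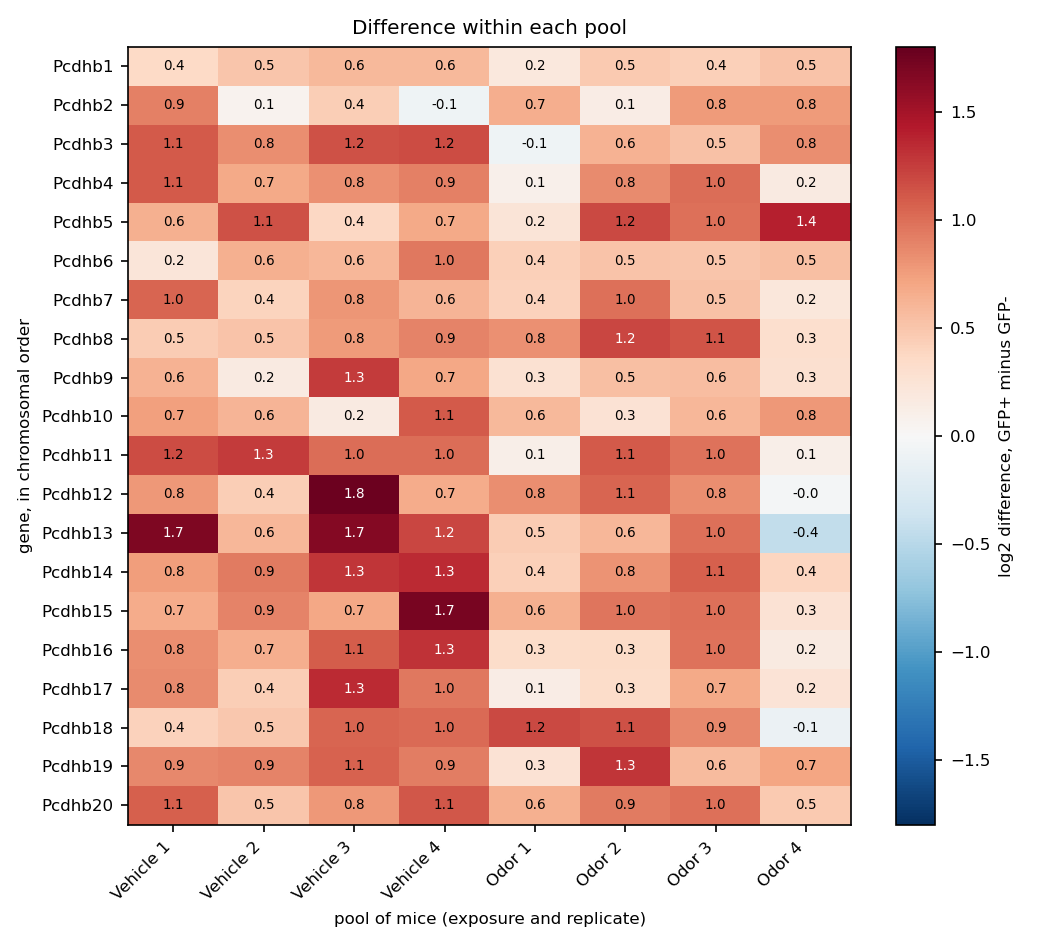
Log2 difference between the GFP+ and the GFP- array of each pool (colour and printed values) for the 20 beta protocadherins (rows, in chromosomal order) in 4 Vehicle and 4 Odor pools (columns). Of the 160 cells, 155 are above 0, and 4 of the others lie in Odor pools 1 and 4.

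The vomeronasal receptors, whose signal serves here as background, also differed between the fractions. Of the 319 vomeronasal receptors, 303 of which were at or below the detection level in all groups, 45 were higher in GFP+ cells of Vehicle mice and 37 in those of Odor mice, and none was lower. These counts are lower shares than the 24.2% and 18.3% of all genes, while the medians of the receptors, 0.26 and 0.23, lay above the 0.17 and 0.15 of all genes. When each array was centred on the median of these receptors, a setting chosen after the data were seen, all 20 protocadherin differences stayed above 0. The median differences were then 0.57 in Vehicle, 0.28 in Odor and 0.47 over both exposures, against -0.14, -0.14 and -0.13 over all genes. Under that centring 10 of 20 genes were called in Vehicle mice, 3 in Odor mice and 14 over both, where 5.91%, 3.94% and 7.47% of all genes were called higher. The 3 genes called in Odor mice were Pcdhb5, Pcdhb8 and Pcdhb20. Centring on the median of all genes moved the other way, to medians of 1.22 and 0.89 for the members and 0.51 and 0.47 for all genes in Vehicle and Odor mice, and all 20 genes were called in both, as were 65.7% and 62.4% of all genes in the same direction.

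Cell type markers moved with the sort. For comparison, 24.2% of all genes were higher and 15.4% lower in Vehicle mice, and 18.3% and 14.4% in Odor mice. All 9 immune cell markers measured were lower in GFP+ cells, with median log2 differences of -5.98 in Vehicle and -5.65 in Odor mice. Their mean per array was 7.60 to 8.20 in GFP+ and 12.64 to 14.16 in GFP- cells. All 8 markers of microvillar cells and ionocytes and all 5 of globose basal cells, the dividing progenitors of the neurons, were lower as well. Of 10 markers of sustentacular cells, the supporting cells of the epithelium, 8 were lower in Vehicle and 4 in Odor mice. The latter count was 7 with the pool as a block. The sustentacular marker mean was 10.58 and 10.80 in Odor GFP+ replicates 2 and 4 and 9.90 and 10.13 in replicates 1 and 3. It was 9.93 to 10.20 in Vehicle GFP+ arrays. Of 12 mature neuron markers, 5 were higher in Vehicle and 3 in Odor mice, with medians of 0.27 and 0.22, and none was lower. The mean of these neuron markers was 16.01 to 16.39 on all arrays, above the highest log2 value of a 16-bit scanner, so their differences share the doubt about scale stated for Pcdhb1. Of 10 immature neuron markers, 4 were lower in either exposure, and 2 were higher in Vehicle mice. How much of the protocadherin difference goes with this change of cells was not tested.

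Among GFP- arrays, the protocadherin mean was low where the immune marker mean was high. In Odor mice the immune mean was 12.64, 13.41, 13.86 and 12.81 in pools 1 to 4, and the mean of the 20 protocadherins was 8.71, 8.38, 8.27 and 8.47. In Vehicle mice the immune mean was 13.31, 13.20, 13.59 and 14.16 and the protocadherin mean 8.35, 8.36, 8.14 and 8.02. The order of the pools was exactly opposite for both quantities in each exposure. The mature neuron marker mean tended to be high where the protocadherin mean was high. In GFP- arrays of pools 1 to 4 it was 16.17, 16.02, 16.02 and 16.20 in Odor mice. In Vehicle mice it was 16.07, 16.12, 16.01 and 16.01. These lists were singled out after their values were seen. With 4 pools per exposure no correlation is given, and the part of immune cells or of neurons in the protocadherin values was not tested.

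**Figure D4:**
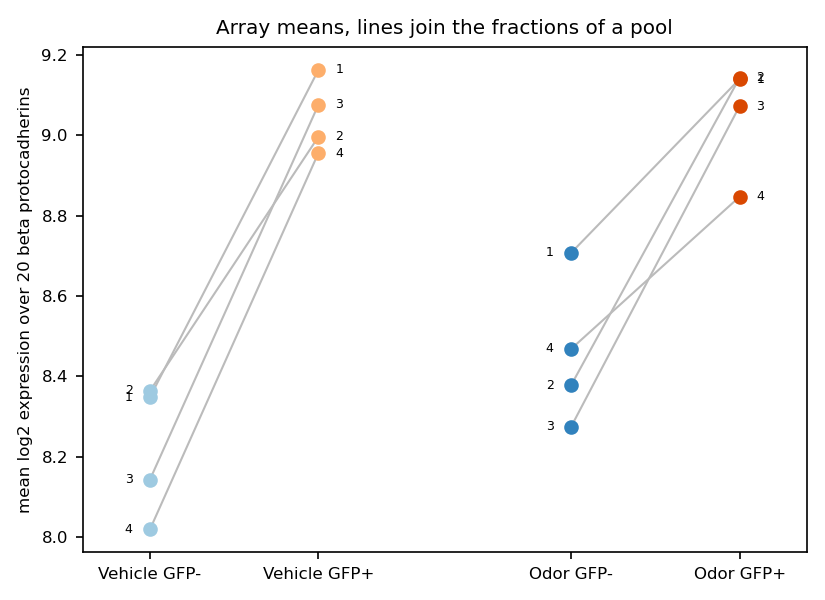
Mean log2 expression over the 20 beta protocadherins (vertical axis) on each of the 16 arrays, by group (horizontal axis); numbers are replicates and grey lines join the fractions of a pool. GFP+ arrays lie between 8.85 and 9.16 and GFP- arrays between 8.02 and 8.71.

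Position in the cluster and shared fluctuation were described over the 20 genes. The median difference over both exposures was 0.62 for the 10 genes first in chromosomal order and 0.82 for the last 10. Spearman's rho between order and difference was 0.49 in Vehicle and 0.24 in Odor mice, over genes that share the same arrays. The sizes in Vehicle and in Odor mice, measured on separate arrays, did not run in a common order across the 20 genes (Spearman's rho = -0.05, Pearson's r = -0.10): a gene with a large difference in one exposure did not tend to have a large one in the other. After removal of group means, 143 of the 190 gene pairs correlated above 0 over the 16 arrays, with a median r of 0.32. Pairs ran from -0.57 (Pcdhb5 with Pcdhb18) to 0.85 (Pcdhb8 with Pcdhb18), and neighbours in the cluster (median 0.33) were like other pairs (0.32). All genes of an array share its scaling and its cells.

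Of the 5 measured genes on either side of the beta genes in chromosomal order, few moved with the sort. The alpha and gamma genes, which were not analysed, are skipped in this order, so these genes need not adjoin the beta genes. The shares of all genes called are those given above. In Vehicle mice Hars2, a mitochondrial histidyl-tRNA synthetase, was 0.39 higher in GFP+ cells (limma, adjusted p = 0.0310) and Diaph1, an actin-nucleating formin, was 0.78 lower (difference -0.78; limma, adjusted p = 0.00478). In Odor mice Hars, a histidyl-tRNA synthetase, was 0.32 higher (limma, adjusted p = 0.0232). The median over these 10 genes was 0.15 in Vehicle and 0.20 in Odor mice, close to that of all genes.

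Non-clustered protocadherins, single genes outside the clusters that also mediate adhesion, were higher in GFP+ cells in 6 of 11 cases in either exposure. None was lower. Of all genes, 24.2% were higher and 15.4% lower in Vehicle mice, and 18.3% and 14.4% in Odor mice. Pcdh7 was 1.73 higher in Vehicle and 1.45 in Odor mice (limma, adjusted p = 1.40e-06 and 1.26e-05), Pcdh8 1.51 and 1.14, Pcdh17 0.98 and 0.77, and Pcdh10 1.86 and 1.19. Pcdh9 was higher in both as well and Pcdh1 in Vehicle mice. Pcdh12 passed in Odor mice, with means of 6.07 and 5.56 that were both below the detection level. With the pool as a block, Pcdh1 passed in Odor mice too (limma, adjusted p = 0.112 without and 0.0406 with the block).

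Of 21 genes of promoter choice and silencing, 2 were higher and 4 lower in GFP+ cells of Vehicle mice, and 0 were higher and 4 lower in Odor mice. Of all genes, 24.2% were higher and 15.4% lower in Vehicle mice, and 18.3% and 14.4% in Odor mice. The list thus holds few more lower genes than the background, and a smaller share of higher ones. Smchd1, a chromatin protein that represses clustered protocadherins in mouse, had differences of -1.68 and -1.48 (limma, adjusted p = 1.10e-07 and 5.97e-07). Rest, a repressor of neuronal genes, had -1.58 in Odor mice. In Vehicle mice its GFP+ mean was below the detection level, and taken against that level it was 3.67-fold lower there than in GFP- cells, a fold without an interval. The maintenance DNA methyltransferase Dnmt1 had -0.50 and -0.43, the latter lost with the pool as a block (limma, adjusted p = 0.0466 without and 0.0505 with it), and Tet2, which oxidizes methylated cytosine, -0.48 and -0.62. The de novo methyltransferase Dnmt3a was 0.42 higher and Tet1 0.55 higher in Vehicle mice. CTCF and the cohesin genes Rad21, Smc1a, Smc3, Stag1 and Stag2 did not pass, with differences from -0.23 (Stag1 in Vehicle) to 0.14 (Stag2 in Odor).

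Of 16 cytoplasmic signalling partners, 2 were higher and 4 lower in Vehicle and 1 higher and 4 lower in Odor mice. The shares of all genes were 24.2% higher and 15.4% lower in Vehicle mice, and 18.3% and 14.4% in Odor mice. With the pool as a block, 6 were lower in Odor mice, with Wasf2 and Cyfip2 added (limma, adjusted p = 0.0527 and 0.0763 without and 0.00235 and 0.0194 with the block). The kinase Ptk2b had GFP+ means below the detection level in both exposures. Taken against that level it was 1.57-fold lower in Vehicle and 1.33-fold lower in Odor GFP+ cells, folds without an interval. The kinase Fyn (-0.98 and -0.82), the protein kinase C substrate Marcks (-1.71 and -1.67) and the small GTPase Rac1 (-0.72 and -0.74) were lower in both. Abi2, a subunit of the actin-regulating WAVE complex, was 0.98 and 0.61 higher. Of 6 proteolysis genes, the sheddase Adam10 was lower (-1.09 and -0.97) and the gamma-secretase subunits Psen2 (0.62 and 0.55) and Aph1b (0.49 and 0.30) were higher. All of these genes are also active in cells other than neurons, the cell type markers above moved in the same comparisons, and their part in these values was not tested.

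The second comparison asked whether smoke odour changed the level within a fraction. S100a5 read higher in Odor mice in both fractions, as given above. A fraction may therefore hold other neurons in Odor than in Vehicle mice, which was not tested and limits the ratio comparison below as well. In GFP+ cells none of the 20 genes passed (limma, lowest adjusted p = 0.999), against 0.103% of all genes higher and 0.00513% lower in Odor mice. At an unadjusted p under 0.05 there were 2 genes, Pcdhb8 and Pcdhb10, against 936 of all 19505 genes. Pcdhb10 was below the detection level in all groups. The array means over the 20 genes were 9.05 ± 0.14 in Odor GFP+ and 9.05 ± 0.09 in Vehicle GFP+ cells (SD, n = 4). Of the 20 differences 8 were above and 12 below 0, with a median of -0.05, and 48.9% of all genes were above 0. The sign of this median turned without Odor GFP+ replicate 4 (0.02) and without Odor pools 2 and 4 (0.06).

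The largest positive difference in GFP+ cells was that of Pcdhb8, at 8.76, 8.79, 8.33 and 8.29 in Odor and 8.21, 8.24, 8.11 and 8.07 in Vehicle arrays. These groups did not overlap, as for 1.66% of all genes with Odor arrays higher and 1.34% with Odor arrays lower, and the difference was 0.38 (95% interval 0.0018 to 0.77). The largest negative one was that of Pcdhb13, -0.58 (95% interval -1.22 to 0.05), and its groups overlapped. Over all members the intervals reached from -1.22 to 0.81, which bounds what these arrays could have missed for single genes.

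In GFP- cells none of the 20 genes passed either (limma, lowest adjusted p = 0.665), against 0.0154% of all genes higher and 0.113% lower. Here 19 of the 20 differences were above 0, as were 52.4% of all genes, with a median of 0.20 against 0.01 over all genes. Array means were 8.46 ± 0.18 in Odor GFP- and 8.22 ± 0.17 in Vehicle GFP- cells (SD, n = 4). At an unadjusted p under 0.05 there were 5 genes, Pcdhb4, Pcdhb9, Pcdhb10, Pcdhb16 and Pcdhb17, all higher. Of all 19505 genes, 1115 had such a p in either direction. Pcdhb10 was below the detection level here too. No gene had groups that did not overlap, against 1.43% of all genes with Odor arrays higher and 1.3% with Odor arrays lower.

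Pcdhb4 had the largest difference, 0.67 (95% interval 0.17 to 1.16; limma, adjusted p = 0.704). It read 10.56, 9.37, 9.30 and 10.05 in Odor GFP- and 9.35, 9.09, 9.19 and 8.99 in Vehicle GFP- arrays, so Odor pools 1 and 4 were high and pools 2 and 3 close to the Vehicle arrays. Pcdhb2 was the gene below 0, at -0.15 (95% interval -0.49 to 0.19). Odor GFP- replicate 1 was the highest of its group for 13 of the 20 genes, and also for the 95th percentile of the vomeronasal receptors, given above. Without Odor pool 1 the median was 0.13, with 17 of 20 genes above 0, and without Odor GFP- replicate 3 it was 0.30. The immune markers had a median difference of -0.33 in the same comparison and the gland and respiratory markers of -0.35, with none called, and their part was not tested.

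**Figure D5:**
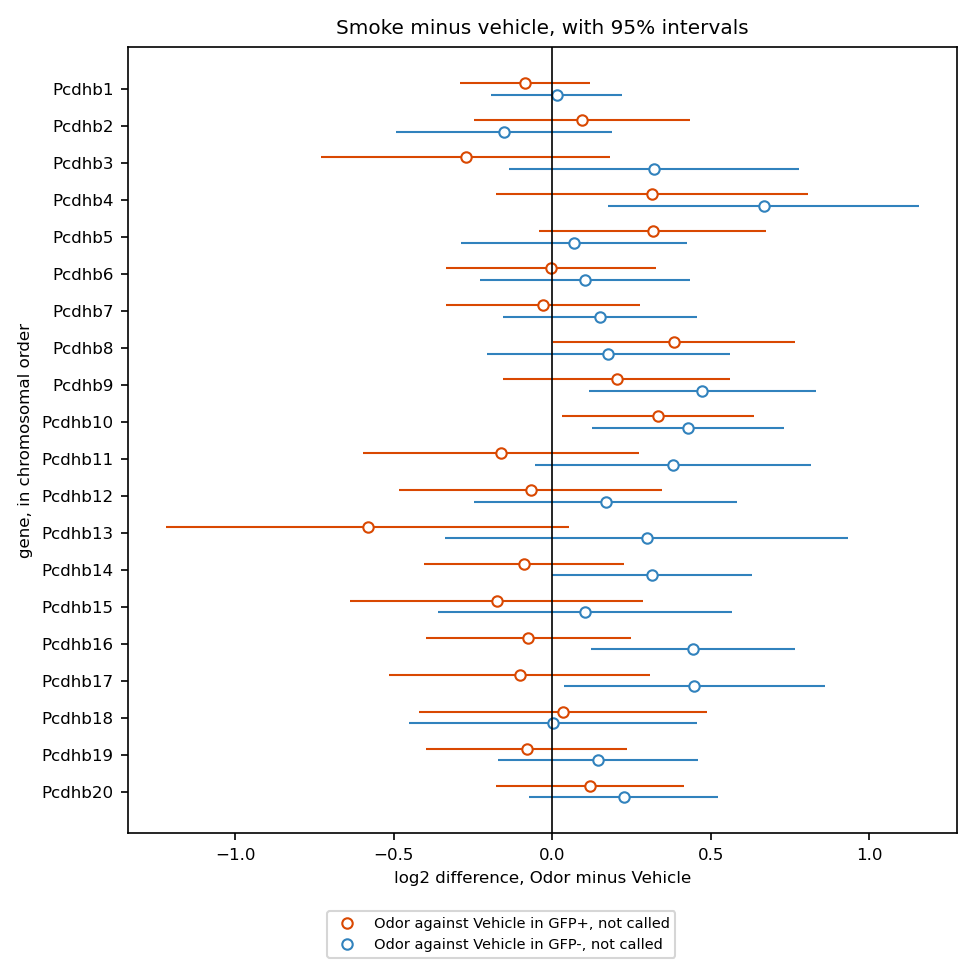
Log2 difference between Odor and Vehicle mice (horizontal axis) for each beta protocadherin in chromosomal order (vertical axis), in GFP+ and in GFP- cells; points are limma estimates and lines their 95% intervals, and open points did not pass the adjusted threshold. GFP+ estimates lie on both sides of 0 (8 above, 12 below), and 19 of 20 GFP- estimates lie above 0.

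The ratio of GFP+ to GFP- levels was then compared between exposures in a single model with an interaction term. No protocadherin passed (limma, lowest adjusted p = 0.833), against 0.169% of all genes higher and 0.00513% lower in Odor mice. The differences were above 0 for 4 and below 0 for 16 genes (above 0 for 48.3% of all genes), with a median of -0.23 against -0.01 over all genes. The median was -0.13 without Odor GFP+ replicate 4 and -0.15 without Odor GFP- replicate 1. At the other end it was -0.31 without Odor GFP+ replicate 2. Pcdhb13 had the lowest value, -0.88 (95% interval -1.78 to 0.02), and Pcdhb5 the highest, 0.25 (95% interval -0.26 to 0.75). Pcdhb16, at -0.52, was the single member with an unadjusted p under 0.05 (limma, adjusted p = 0.833), against 1114 of all 19505 genes. The sort difference was thus not shown to differ between Vehicle and Odor mice for any of the 20 genes.

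No gene of the 4 pathway lists passed in the smoke comparisons of either fraction. Of their 54 genes, Pcdh10 and Pcdh12 (Odor arrays higher) and Pds5a (lower) had groups that did not overlap in GFP+ cells, and Pcdh10 (higher), Stag1 and Setdb1 (lower) in GFP- cells; the shares over all genes are those given above. Pcdh10, known in mouse for a part in sorting olfactory axons, did so in both fractions and is given for that, a choice made after its values were seen. Its GFP- arrays read 10.66, 9.86, 10.03 and 9.59 in Odor and 8.55, 8.91, 8.11 and 7.71 in Vehicle mice, and its GFP+ arrays 12.18, 10.74, 11.46 and 10.49 against 10.37, 10.26, 9.82 and 10.26. The difference was 1.71 in GFP- cells (SE 0.33; limma, adjusted p = 0.0620) and 1.04 in GFP+ cells (SE 0.33; limma, adjusted p = 0.693), so the direction was the same in both fractions and neither passed.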

How the data were processed

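The authors deposited log2 expression values of 16 Clariom S mouse arrays, made with Affymetrix Expression Console per the submitters' processing notes; its version, algorithm and annotation were not stated there. Of the deposited values 0.946% exceeded 16 on the log2 scale. The series text names bourgeonal, but the title and sample labels name cigarette smoke and were followed. Of 28846 probe sets, 19572 carried 1 symbol, giving 19505 genes; gene order came from RefSeq's table for GRCm38.p6. Separate pools are the replicates; the number of arrays limits precision.

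All arrays and genes entered 1 linear model with 4 group means, using limma 3.58.1 (lmFit, eBayes) under R 4.3.3. The p-values were two-sided, adjusted by Benjamini-Hochberg over all genes, with a threshold of 0.05, and the model was tested on simulated data. Intervals are 95% intervals of single genes, unadjusted. The fractions of a pool share animals, so its number pairs them; residuals of same-pool arrays correlated at 0.045 to 0.22. Alternatives were array scaling, filters, spread estimates, blocks and arrays left out.

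Members, pathway lists (non-clustered protocadherins, promoter choice and silencing, signalling, proteolysis), cell type lists and tests were chosen with earlier results of these data known. Named were called members, the largest rise and fall per comparison, members below the detection level in all groups, and up to 4 called genes per list. Any other gene is named as part of a counted group or where the text gives the reason. The lists of horizontal basal cells, glands and respiratory epithelium, ensheathing cells of the olfactory nerve, and endothelial with stromal cells had median sort differences in Vehicle and Odor mice of 0.02 and 0.18, -0.88 and -0.11, 0.13 and 0.21, and -0.13 and -0.06. Tissue-restricted genes, a second background list, had 0.15 and 0.30. In the 4 cell type lists just named, 4 of 6, 2 of 9, 4 of 6 and 3 of 8 markers were at or below the detection level in all groups. In the same order, 2, 4, 1 and 2 were called lower and 0 higher in Vehicle mice. In Odor mice 2, 2, 1 and 1 were called lower and 1, 0, 1 and 0 higher. The shares of all genes called are given above. Figures were drawn in Python 3.11.15 with matplotlib 3.10.9.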

Additional observations from a re-analysis of the deposited data

Results flagged for a closer look

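In 6 of 84 groups of 4 arrays (20 genes and the array mean, in 4 groups each), the highest or lowest array stood apart from the others by Dixon's 95% criterion; chance alone gives about 5%. Pcdhb17 was low in Vehicle GFP+ replicate 4, at 10.57 against 10.79 in the nearest array. Pcdhb20 was low in Vehicle GFP- replicate 4, at 9.33 against 9.68, and low in Odor GFP+ replicate 4, at 10.29 against 10.69. Pcdhb9 was high in Odor GFP- replicate 4, at 9.82 against 9.70. Pcdhb13 was high in Odor GFP- replicate 1, at 7.16 against 6.56, and Pcdhb17 was high on the same array, at 10.77 against 10.21. No cause of these values was tested.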

How the results depend on the processing

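Of the gene calls recomputed under the alternatives, 1319 were kept, 62 lost significance and 0 changed direction. In part of these settings the estimate could not move. The arrays left out were not those compared, or probe sets were averaged although each member had a single one. The number kept therefore overstates how far the calls were put to a test. Centring on the vomeronasal receptors left 10 calls in Vehicle and 3 in Odor mice, and leaving out Odor pools 2 and 4 left 6 in Odor mice; the latter has 2 Odor pools left, and the cause of the former was not tested. Over both exposures this centring left 14 and the replicate block 20. Leaving out 1 array gave 19 to 19 calls in Vehicle, 11 (without Odor GFP+ replicate 2) to 17 (without Odor GFP- replicate 1) in Odor mice, 20 to 20 over both and 0 to 0 in the smoke and ratio comparisons. The block on the pool gave 19 calls in Vehicle and 17 in Odor mice. A block on the replicate number gave 0 in the smoke comparisons, where numbers share only a label (correlations of deviations -0.084 to 0.20). In Odor mice the calls of Pcdhb11, Pcdhb16, Pcdhb15 and Pcdhb6 were lost in 11, 7, 6 and 6 settings. Under the strictest background level, 11, 7 and 8 genes were above it in Vehicle GFP+, Vehicle GFP- and Odor GFP- cells. The count in Odor GFP+ cells, given above, was higher than these. Leaving out 1 array under the main level gave 18 to 19 in Odor GFP+ and 18 to 19 in Odor GFP-. It gave 19 to 19 in Vehicle GFP+ and 17 to 18 in Vehicle GFP-. Fitting the compared arrays alone was not run for both exposures or the ratio, which need all arrays.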
